A study of Rattus norvegicus with 9 samples.

Results

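The Bcl2 family around Bax was examined in cultures of rat hippocampal neurons given procalcitonin peptides. Their names, 10 in all, had been set as Bax, Bak1, Bcl2, Bcl2l1, Bcl2l2, Bcl2l11, Bbc3, Bad, Bid and Mcl1, and a gene was a member if its symbol in the expression table was one of them. Of the 10 names, 8 were found among the 34092 genes of the table, and all 8 passed the filter on low levels. The names Bbc3 and Mcl1 were not found as symbols. In the table, 2 loci without a symbol carried a description that names Bcl-2-binding component 3 (PUMA, the product of Bbc3) and Mcl-1. They are called the PUMA locus and the Mcl-1 locus here, and their values are given apart from the members. The family was chosen by the level of Bax, which was called higher than Control with both peptides in earlier results from these libraries, and the other members for their kinship with it. The differences of Bax from Control are therefore described without a test.

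Members of the Bcl2 family decide whether the outer mitochondrial membrane stays intact. The effectors Bax and Bak1 form pores that release cytochrome c, anti-apoptotic members such as Bcl2 and Bcl2l1 (Bcl-xL) hold the effectors back, and BH3-only members such as Bad, Bid and Bcl2l11 (Bim) neutralise the anti-apoptotic members or activate the effectors directly. In neurons, Bax is known as the main effector of developmental cell death, and transcription of Bax, Bbc3 and Pmaip1 is known to be induced by p53.

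The RNA came from cultures of wild-type primary hippocampal neurons, dissociated from rat fetuses of embryonic day 17 and kept for 7 days in vitro. All cultures grew in neurobasal medium with B27, and no mitotic inhibitor was used. The Control group received vehicle. The NPCT group received 1 nM human aminoprocalcitonin (NPCT, the amino-terminal peptide of procalcitonin) and the PCT group 1 nM human procalcitonin (PCT, the parent peptide), each peptide for 24 h. Each group had 3 libraries, but the methods speak of RNA from pooled biological triplicates, so p-values measure only the spread between these libraries, which may be technical.

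Levels are FPKM, a fragment count scaled to gene length and to a size factor of the library, which can be compared between genes. The median-ratio factor of these values was 1.006 in every library, so they had already been scaled to a common median ratio. The libraries held 13573056 to 17211642 fragments on genes. Libraries of 1 group differed by more than sampling, with a chi-square per degree of freedom of 4.34 to 23.0, and the highest values were those of PCT replicate 3 against the other PCT libraries. The 14 neuronal markers were all present and summed to 2417 to 2700 FPKM per library, while 10 astrocyte markers summed to 2122 to 2681 FPKM. NPCT replicate 3 stood apart in microglial markers, 13 of 14 of which were in the table, with a sum of 236.4 FPKM against 76.4 and 80.6 in the other NPCT libraries, 71.3 to 82.6 in Control and 51.7 to 55.9 in PCT. Values without NPCT replicate 3 or PCT replicate 3 are also given beside several members' results.

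In Control cultures, which also held astrocyte markers, the members spanned a wide range of levels. Bad had the highest mean level at 39.8 FPKM, followed by Bax at 27.9 FPKM. Below Bax came Bid (23.0 FPKM), Bcl2l1 (20.6 FPKM) and Bak1 (18.5 FPKM), and neighbours among these 3 overlapped in their libraries. Bcl2l2 followed at 13.15 FPKM, apart from both of its neighbours, and Bcl2l11 (2.92 FPKM) and Bcl2 (2.67 FPKM) were the lowest and overlapped. Bax and Bad lay apart in Control but overlapped with both peptides, where Bax averaged 50.35 FPKM against 53.4 for Bad with NPCT, and 45.05 FPKM against 46.8 for Bad with PCT.

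**Figure D1:**
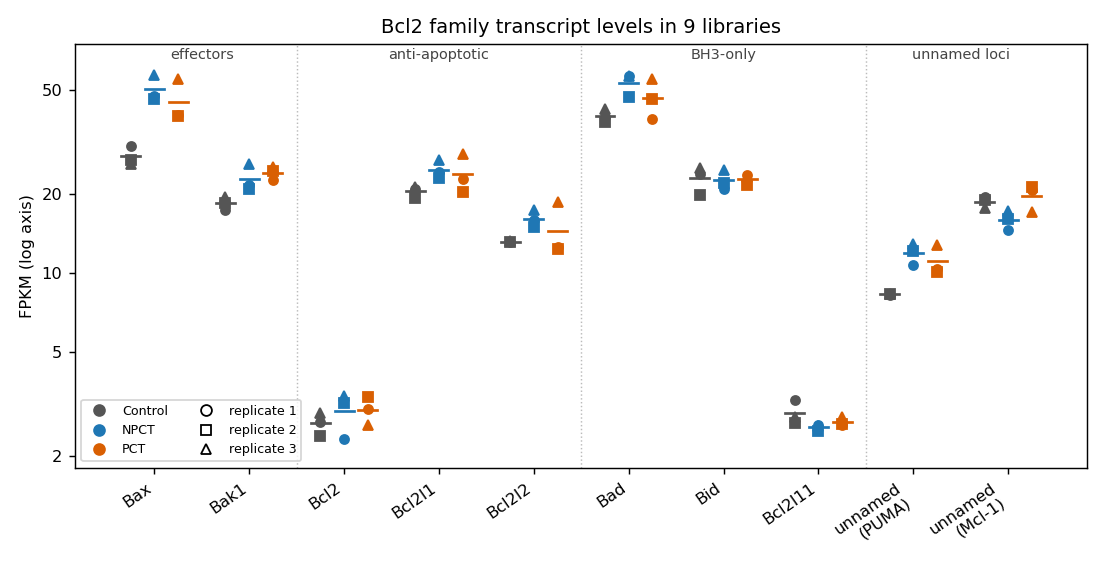
Transcript levels in FPKM (log axis) of the 8 members and the 2 unnamed loci in each of the 9 libraries, by group (colour) and replicate (symbol), with bars at group means. Bax lay at 26.1 to 30.6 FPKM in Control, 46.3 to 57.2 with NPCT and 39.8 to 55.2 with PCT, while Bid overlapped in all groups.

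Bax (ENSRNOG00000020876, chr1:101451802-101457207, minus strand, build Rnor_6.0) encodes the effector that moves from the cytosol to mitochondria. It measured 30.6, 26.9 and 26.1 FPKM in Control replicates 1 to 3, 47.5, 46.3 and 57.2 FPKM with NPCT, and 40.2, 39.8 and 55.2 FPKM with PCT, from 482 to 1237 fragments per library. Every treated library thus lay above every Control library, and replicate 3 was the highest of both treated groups. The means were 27.9 ± 2.43 FPKM in Control, 50.35 ± 6.002 with NPCT and 45.05 ± 8.80 with PCT (SD, n = 3 libraries each). On the scale of log2(FPKM + 0.1), the difference from Control was 0.85 with NPCT and 0.68 with PCT, which is 1.8-fold and 1.6-fold. These 2 contrasts share the Control libraries. Without NPCT replicate 3 the first was 0.75, and without PCT replicate 3 the other was 0.52. In bulk RNA, fewer cells of a type and less RNA per cell cannot be told apart.

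The other effector, Bak1 (ENSRNOG00000000485, chr20:5609625-5618260, minus strand, Rnor_6.0), resides on the outer mitochondrial membrane. It measured 17.4, 18.5 and 19.5 FPKM in Control, 21.7, 21.0 and 26.0 FPKM with NPCT, and 22.7, 24.5 and 25.5 FPKM with PCT. As with Bax, both treated groups lay wholly above Control, but the distance was smaller. The log2 difference from Control was 0.30 with NPCT (SE 0.093, adjusted p = 0.0779) and 0.39 with PCT (SE 0.093, adjusted p = 0.0541), both from limma with Benjamini-Hochberg adjustment over all genes tested. Neither passed the threshold, which was an adjusted p of at most 0.05 with a fold change above 1.5. Without PCT replicate 3 the NPCT difference had an adjusted p of 0.0494 from limma, still under the fold threshold, and without NPCT replicate 3 it was 0.21 with an adjusted p of 0.174.

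The promoter of Bak1 is shown because Bak1 was the one member besides Bax whose libraries lay above Control with both peptides. RefSeq sequence tables on build GRCr8 held promoter entries for 8 of the 10 member names, and Bax and Bbc3 had none. The 250 bases before the Bak1 start (chr20:5110975-5111224, minus strand, GRCr8, 5′ to 3′) held one GC box, GGGCGG, in capitals.
Bak1: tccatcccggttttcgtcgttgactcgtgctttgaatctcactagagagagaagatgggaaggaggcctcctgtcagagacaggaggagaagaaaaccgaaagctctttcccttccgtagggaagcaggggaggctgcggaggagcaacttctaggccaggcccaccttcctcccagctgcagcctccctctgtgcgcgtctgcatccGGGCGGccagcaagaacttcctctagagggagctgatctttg
Motifs were searched on both strands. The GC box was in 30.5% of all 33469 promoter stretches of this length, and among the members it was also in those of Bcl2l2 and Mcl1 (1 match each), Bcl2l11 (2) and Bid (3). A p53 half-site was in 6.64% of all promoters and in 0 of the entries of the 8 member names, which says only that these letters were not in this window.

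Of the anti-apoptotic members, Bcl2l1 (ENSRNOG00000007946, chr3:148259596-148313810, minus strand, Rnor_6.0), which encodes Bcl-xL, had the highest level. It measured 20.9, 19.4 and 21.4 FPKM in Control, 24.2, 23.2 and 27.1 FPKM with NPCT, and 22.8, 20.4 and 28.5 FPKM with PCT. The NPCT libraries all lay above Control, whereas the PCT libraries overlapped Control. The log2 difference was 0.27 with NPCT (95% interval 0.00049 to 0.53, adjusted p = 0.170) and 0.20 with PCT (-0.064 to 0.47, adjusted p = 0.401; limma). Without PCT replicate 3 the PCT difference was 0.070 and the NPCT difference had an adjusted p of 0.0468, under the fold threshold, while without NPCT replicate 3 the latter was 0.20 (adjusted p = 0.369, limma). Bcl2l1 overlaps the pseudogene LOC108350502 on the plus strand (chr3:148283209-148284141, mean level 153.9 FPKM), and as the library protocol does not mark strand, reads from the shared stretch cannot be told apart. No other member overlapped another gene of the table.

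Bcl2l2 (ENSRNOG00000015732, chr15:33544312-33549164, plus strand) encodes Bcl-w, known to support the survival of neurons. It measured 13.2, 13.1 and 13.2 FPKM in Control, 16.0, 15.0 and 17.5 FPKM with NPCT, and 12.5, 12.3 and 18.7 FPKM with PCT. NPCT libraries lay apart from Control, while 2 PCT libraries lay below Control and PCT replicate 3 lay far above. The log2 difference was 0.29 with NPCT (adjusted p = 0.221) and 0.11 with PCT (adjusted p = 0.743; limma), and the latter turned to -0.080 without PCT replicate 3. The adjusted p with NPCT was 0.0232 without PCT replicate 3, under the fold threshold, and 0.425 without NPCT replicate 3 (limma). Bcl2 (ENSRNOG00000002791, chr13:26605426-26769374, minus strand), the founding member of the family, had low levels of 2.33 to 3.40 FPKM in all libraries, from 67 to 108 fragments. Its groups overlapped, with log2 differences from Control of 0.14 with NPCT (95% interval -0.26 to 0.53) and 0.16 with PCT (-0.23 to 0.56). With a library left out they ranged from 0.035 to 0.30 and from 0.081 to 0.25. A change within these 95% intervals was not excluded, and the part of depth in them was not tested.

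Among BH3-only members, Bad (ENSRNOG00000021147, chr1:222198534-222207453, plus strand), which binds Bcl-xL when survival kinases leave it unphosphorylated, stood highest. It measured 39.5, 37.7 and 42.2 FPKM in Control, 56.5, 47.0 and 56.7 FPKM with NPCT, and 38.6, 46.3 and 55.3 FPKM with PCT. With NPCT all libraries lay above Control, but PCT replicate 1 lay within the Control range. The log2 difference was 0.42 with NPCT (95% interval 0.13 to 0.71, adjusted p = 0.0786) and 0.22 with PCT (-0.072 to 0.51, adjusted p = 0.406; limma). Leaving out PCT replicate 3, which enters only the spread of the NPCT contrast, gave Bad an adjusted p of 0.0209 from limma with NPCT, and leaving out NPCT replicate 3 gave 0.191. The PCT difference of Bad was 0.089 without PCT replicate 3.

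Bid (ENSRNOG00000012439, chr4:153442218-153465203, minus strand), which caspase-8 cleaves to its active form, measured 19.8 to 25.2 FPKM in Control, 21.0 to 24.8 with NPCT and 21.7 to 23.8 with PCT. The groups overlapped, and the 95% intervals of the log2 difference from Control were -0.25 to 0.21 with NPCT and -0.23 to 0.23 with PCT. Bcl2l11 (ENSRNOG00000016551, chr3:120726906-120764192, plus strand), which encodes Bim, measured 3.26, 2.66 and 2.82 FPKM in Control, 2.63, 2.49 and 2.61 FPKM with NPCT, and 2.62, 2.64 and 2.80 FPKM with PCT. It was the only member with NPCT libraries all below Control, by a narrow gap, and its log2 difference of -0.17 had an adjusted p of 0.403 (limma). With PCT it was -0.11 (adjusted p = 0.711, limma).

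The PUMA locus (chr1:78264274-78267798, plus strand, Rnor_6.0), for a p53-induced BH3-only protein, measured 8.24, 8.31 and 8.32 FPKM in Control, 10.8, 12.2 and 12.9 FPKM with NPCT, and 10.4, 10.1 and 12.7 FPKM with PCT. As for Bax and Bak1, no treated library overlapped Control. The log2 difference was 0.52 with NPCT (SE 0.11, adjusted p = 0.0509) and 0.41 with PCT (SE 0.11, adjusted p = 0.0693; limma), so it did not pass the threshold with either peptide. Without PCT replicate 3 the adjusted p with NPCT was 0.0064, under the fold threshold, and without NPCT replicate 3 it was 0.132 (limma). The Mcl-1 locus (chr2:197787106-197796028, plus strand), for an anti-apoptotic member that neurons depend on, measured 19.6, 18.9 and 17.8 FPKM in Control, 14.5, 16.1 and 17.2 FPKM with NPCT, and 20.7, 21.2 and 17.1 FPKM with PCT. Its NPCT libraries lay below Control, with a log2 difference of -0.23 (adjusted p = 0.159) that was -0.081 with the length trend of each library removed (adjusted p = 0.625), while PCT and Control overlapped (0.07, adjusted p = 0.786; limma).

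Of 7 members with a test against Control, 0 passed the threshold with NPCT and 0 with PCT, where 0.219% and 2.31% of all 15958 genes tested were called (limma). At an unadjusted p under 0.05, 3 members (Bad, Bak1 and Bcl2l1) were higher with NPCT, where 14.4% of all genes were, and 1 (Bak1) with PCT, where 10.1% of all genes were. Bax left out, 4 of 7 members (Bak1, Bcl2l1, Bcl2l2 and Bad) had NPCT libraries wholly above Control (20% of all genes) and 1 (Bcl2l11) wholly below (20.3% of all genes), and 1 of 7 (Bak1) had PCT libraries wholly above (13.1% of all genes). The median log2 difference over the 8 members was 0.28 with NPCT and 0.18 with PCT, beside 0.0062 and 0.0046 over all genes tested, and without Bax it was 0.27 and 0.16. Without NPCT replicate 3 the NPCT median was 0.21, and without PCT replicate 3 the PCT median was 0.079. Gene length varied alongside: Bax (1277 bases) and Bad (1001 bases) are shorter than the median of 2136 bases over all genes tested, although Bcl2l1 (4118 bases) and Bcl2l2 (3520 bases) are longer. The slope of log2 level on log2 length was negative in the NPCT libraries (-0.0263 to -0.0190) and PCT replicate 3 (-0.0280), whereas it was 0.0216 and 0.0272 in the other PCT libraries and 0.0192, 0.0287 and -0.00046 in Control. With the length trend of each library removed, the difference from Control with NPCT was 0.74 for Bax, 0.28 for Bad, 0.26 for Bak1 and 0.39 for the PUMA locus. In the same setting it was 0.33 for both Bcl2l1 and Bcl2l2, 0.094 for Bcl2, -0.066 for Bid, -0.080 for Bcl2l11 and -0.081 for the Mcl-1 locus, which is 8923 bases long. With PCT, Bak1 and the PUMA locus then had adjusted p of 0.0253 and 0.0373 (limma), under the fold threshold. The part of gene length in these values was not tested beyond this.

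**Figure D2:**
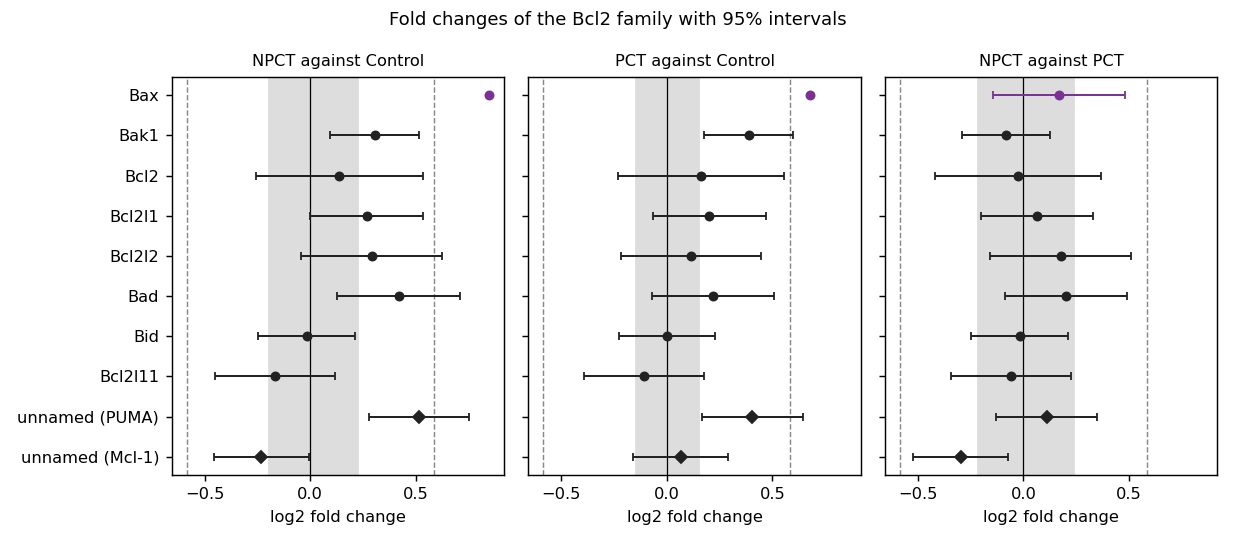
Log2 differences of the members (circles, Bax in purple) and the 2 unnamed loci (diamonds) in the 3 contrasts, with 95% intervals except for Bax against Control. The grey band is the interquartile range of all genes tested, dashed lines mark a 1.5-fold change, and the Bax values of 0.85 and 0.68 lay beyond that line against Control, while the 8 members stayed within it between NPCT and PCT.

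The peptides were then compared with each other, a contrast that the choice of Bax did not use directly but whose libraries it shares. Between NPCT and PCT, 0 of 8 members were called by limma, where 5.76% of all genes were. At an unadjusted p under 0.05, 0 were higher and 0 lower, where 15.6% and 17.5% of all genes were (limma). All 8 overlapped in their libraries, where 15.4% of all genes lay wholly higher and 18.0% wholly lower. Bax differed by 0.17 on the log2 scale (NPCT minus PCT, 95% interval -0.14 to 0.48, adjusted p = 0.423, limma). The interval holds both a slightly lower and a clearly higher level with NPCT, so the peptides were not shown to act alike on Bax. Without PCT replicate 3 the difference of Bax was 0.33 (adjusted p = 0.0472, limma) and that of Bcl2l2 was 0.37 (adjusted p = 0.0095), both under the fold threshold. Bak1 differed by -0.08 (-0.29 to 0.13), Bad by 0.20 (-0.089 to 0.49), Bcl2l1 by 0.06 (-0.20 to 0.33) and Bid by -0.02 (-0.25 to 0.21). The largest distance belonged to the Mcl-1 locus, which was 0.30 lower with NPCT than with PCT (95% interval -0.52 to -0.073, adjusted p = 0.0728, limma), and -0.39 without PCT replicate 3 (adjusted p = 0.0105, under the fold threshold).

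The balance between Bax and the anti-apoptotic members was described as the Bax level divided by the summed levels of Bcl2, Bcl2l1 and Bcl2l2 in the same library. It was 0.833, 0.771 and 0.695 in Control, 1.12, 1.12 and 1.19 with NPCT, and 1.05, 1.101 and 1.11 with PCT. Every treated library thus had a higher ratio than every Control library, and since Bax was chosen for its level, no test was made. The sum had been planned to hold Mcl1 too, but that name was not found as a symbol, so it leaves out the Mcl-1 locus. With that locus added, a sum formed after the data had been seen, the ratio was 0.472 to 0.544 in Control, 0.805 to 0.878 with NPCT and 0.680 to 0.825 with PCT, so Bax was then below the anti-apoptotic sum in all 9 libraries. The mean ratio was 0.766 ± 0.069 in Control, 1.14 ± 0.043 with NPCT and 1.09 ± 0.033 with PCT (SD, n = 3). In this ratio PCT replicate 3 did not stand apart, although its Bax level did, because its anti-apoptotic sum was also the highest at 49.8 FPKM. The effector sum of Bax and Bak1 was 46.3 ± 1.45, 73.3 ± 8.71 and 69.2 ± 9.92 FPKM in Control, NPCT and PCT. The anti-apoptotic sum was 36.4 ± 1.36, 43.9 ± 3.52 and 41.4 ± 7.32 FPKM, and the sum of the BH3-only members Bad, Bid and Bcl2l11 was 65.7 ± 5.08, 78.6 ± 6.35 and 72.3 ± 8.28 FPKM. Bax made up 18.8% of the summed level of the 8 members in Control, 25.7% with NPCT and 24.5% with PCT. Against its fellow effector, the ratio of Bax to Bak1 was 1.52 ± 0.22 in Control, 2.20 ± 0.0097 with NPCT and 1.86 ± 0.28 with PCT.

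**Figure D3:**
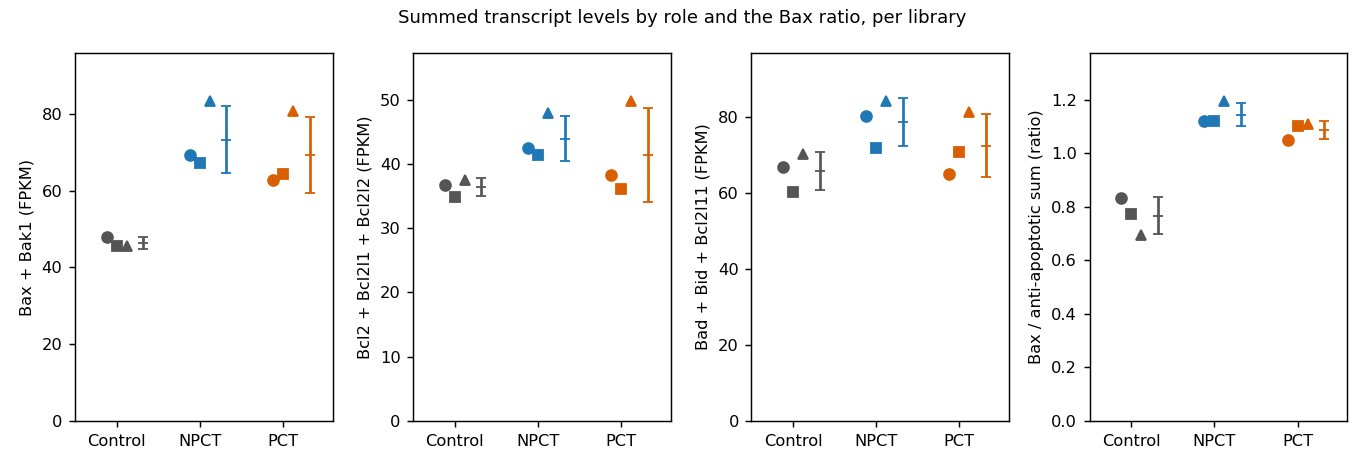
Summed FPKM of effectors, anti-apoptotic members and BH3-only members, and the ratio of Bax to the anti-apoptotic sum without the Mcl-1 locus, in each library (circles, squares and triangles are replicates 1, 2 and 3) with mean and SD per group beside them. The ratio lay at 0.695 to 0.833 in Control and at 1.05 or above in the 6 treated libraries.

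The genes with the pattern most like Bax were sought among 10063 genes with a mean level of at least 5 FPKM, by the Pearson correlation of log2 levels over the 9 libraries. They were Samm50 (r = 0.985), a part of the machinery that inserts proteins into the outer mitochondrial membrane, Mvb12a (0.980), a subunit of ESCRT-I, Polr1c (0.979), a subunit of RNA polymerases I and III, Psma7 (0.9745), a proteasome subunit, and Phlda3 (0.972), a gene known to be induced by p53. An r of at least 0.9 was shared by 205 of these genes, and the median was 0.023, so Bax had many companions. The points share group, depth and length slope of the libraries. Among the family, the PUMA locus followed Bax most closely (r = 0.97), then Bcl2l1 (0.86), Bad (0.84), Bak1 (0.83) and Bcl2l2 (0.77). Bcl2 (0.29) and Bid (0.09) had little relation to Bax, and r was -0.42 for the Mcl-1 locus and -0.43 for Bcl2l11, where 28.1% and 27.2% of the genes compared had a lower r.

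As Bax is a known p53 target, 24 genes of the p53 response were listed, of which 20 were tested. Bax, on which the choice rested, is left out of the counts against Control. With NPCT, 0 of the other 19 were called in either direction by limma, where 0.15% of all genes were called higher, 2 were higher and 1 lower at an unadjusted p under 0.05 (14.4% and 14.9% of all genes), and their median log2 difference was -0.08, beside 0.0062 over all genes. With PCT, 3 of the 19 were called higher, namely Phlda3, Pmaip1 and Eda2r, and 0 lower, where 0.589% of all genes were called higher. At an unadjusted p under 0.05, 9 of the 19 were higher with PCT and 0 lower, where 10.1% and 8.79% of all genes were (limma). Their median with PCT was 0.24, beside 0.0046 over all genes. In level, Phlda3 lay above Control with both peptides like Bax, with 22.6 to 24.3 FPKM in Control, 36.0 to 50.5 with NPCT and 34.9 to 43.5 with PCT. Its log2 difference was 0.67 with PCT (adjusted p = 0.0313) and 0.76 with NPCT, just short of the threshold (adjusted p = 0.0509, limma). The PCT call of Phlda3 held in 14 of 19 alternatives, with adjusted p up to 0.110 (limma). It was lost, among others, without PCT replicate 3 (adjusted p = 0.0595, limma). The NPCT difference of Phlda3 passed in 8 of 19 alternatives, with adjusted p from 0.0071 to 0.170 over all of them (limma). Gadd45a and Tigar, named after their values were seen, also had all treated libraries above Control. The log2 difference of Gadd45a was 0.76 with NPCT (adjusted p = 0.0672) and 0.79 with PCT (adjusted p = 0.0811, limma). That of Tigar was 0.15 with NPCT (adjusted p = 0.250) and 0.17 with PCT (adjusted p = 0.284, limma).

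Between the peptides, 2 of the 20 genes were called, both lower with NPCT than PCT, where 1.38% of all genes were, and 5 were lower with an adjusted p of at most 0.05 at any fold, where 8.32% of all genes were (limma). Pmaip1, which encodes the BH3-only protein Noxa, measured 3.94, 3.11 and 3.13 FPKM in Control, 2.38, 2.52 and 3.87 FPKM with NPCT, and 5.93, 7.13 and 5.80 FPKM with PCT. Its PCT libraries were above all others, and it was higher with PCT than Control by 0.87 (adjusted p = 0.0415) and lower with NPCT than PCT, with a log2 difference of -1.105 (adjusted p = 0.0094, limma). Eda2r, a death receptor of the TNF receptor family, behaved alike, with 0.86 for PCT against Control (adjusted p = 0.0315) and a log2 difference of -1.07 for NPCT against PCT (adjusted p = 0.0074, limma). The PCT call of Pmaip1 held in 9 of 19 alternatives and that of Eda2r in 11, with adjusted p up to 0.138 and 0.108, whereas the differences between NPCT and PCT were kept in all of them. The PCT call of Pmaip1 was lost on leaving out any library but NPCT replicate 3, and that of Eda2r on leaving out any Control library, PCT replicate 1, PCT replicate 2 or NPCT replicate 2. Chosen after their values were seen, Aen, a p53-induced nuclease, and Mdm2, the ubiquitin ligase that degrades p53, were higher with PCT than Control by 0.53 (adjusted p = 0.0102) and 0.46 (adjusted p = 0.0200, limma), under the fold threshold. Both were lower with NPCT than PCT, with log2 differences of -0.52 and -0.55 (adjusted p = 0.0059 and 0.0052, limma), and so was Ccng1, also chosen after its values were seen, with -0.53 (adjusted p = 0.0131, limma).

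**Figure D4:**
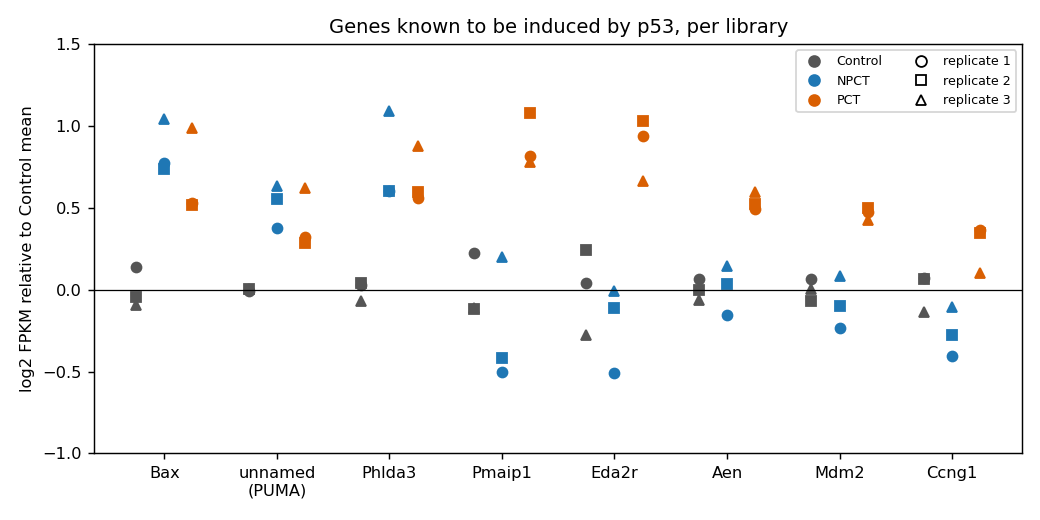
Log2 FPKM relative to the Control mean in each library for Bax, the PUMA locus and 6 other genes known to be induced by p53. Bax, the PUMA locus and Phlda3 lay above Control with both peptides, whereas the PCT libraries of Pmaip1, Eda2r, Aen and Mdm2 lay above those of NPCT as well as Control.

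Of 14 further Bcl2-family and BH3 genes, 8 were tested. With NPCT 0 of them were called, where 0.219% of all genes were, and with PCT 1 was called higher (Pmaip1), where 0.589% of all genes were. Between NPCT and PCT 1 was called higher (Bmf) and 1 lower (Pmaip1), where 4.38% and 1.38% of all genes were. Bmf, a BH3-only gene, was low at 0.52 to 2.21 FPKM and 19 to 71 fragments, and its log2 difference of 1.07 (adjusted p = 0.0388, limma) lost its call in 13 of 19 alternatives. Of 16 genes that act with or downstream of Bax at the mitochondrion, 0 were called against Control with either peptide by limma, where 0.219% (NPCT) and 2.31% (PCT) of all genes were, so a count of 0 does not set the list apart. At an unadjusted p under 0.05, 3 were higher and 2 lower with NPCT, where 14.4% and 14.9% of all genes were (limma). With PCT 3 were higher and 1 lower, where 10.1% and 8.79% of all genes were. Cycs, which encodes cytochrome c, and Bag1, a Bcl2-binding cochaperone, both chosen after their values were seen, had log2 differences with PCT of 0.38 (adjusted p = 0.0291) and 0.41 (adjusted p = 0.0256, limma), under the fold threshold. Between NPCT and PCT, 1 of the 16 was called higher (4.38% of all genes) and 0 lower, while 4 were lower with an adjusted p of at most 0.05 at any fold (8.32% of all genes) and 6 had NPCT libraries wholly below PCT (18.0% of all genes). The gene called was Bag3, a cochaperone, with a log2 difference of 0.65 (adjusted p = 0.0101, limma), which fell under the fold threshold without PCT replicate 1 (0.58) or NPCT replicate 3 (0.54). The 4 lower genes, under the fold threshold and named after their values were seen, were Cycs (-0.37, adjusted p = 0.0165), Dnm1l (-0.38, adjusted p = 0.0355), which encodes a mitochondrial fission GTPase, Sh3glb1 (-0.24, adjusted p = 0.0442), a Bax-binding protein, and Vdac2 (-0.25, adjusted p = 0.0467, limma), a channel of the outer membrane.

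Of 6 caspase-pathway genes tested (8 listed), 0 were called in any contrast by limma, where 0.219% (NPCT), 2.31% (PCT) and 5.76% (NPCT against PCT) of all genes were, so a count of 0 of 6 does not set the list apart. At an unadjusted p under 0.05, 1 was higher and 4 lower with NPCT, where 14.4% and 14.9% of all genes were (limma). With PCT 0 were higher and 1 lower, where 10.1% and 8.79% of all genes were. With NPCT than PCT, 1 was higher and 2 lower, where 15.6% and 17.5% of all genes were. Xiap, a caspase inhibitor, lay at 11.1 to 11.4 FPKM in Control and 8.22 to 8.58 with NPCT (log2 difference -0.42, adjusted p = 0.0509), and Apaf1, the scaffold that cytochrome c activates, differed by -0.28 (adjusted p = 0.0693, limma). Libraries of both genes did not overlap between NPCT and Control. Of 21 tested kinases, transcription factors and binding partners that act on the family (22 listed), 0 were called in any contrast by limma, beside the same shares of all genes. At an unadjusted p under 0.05, 0 were higher and 11 lower with NPCT, where 14.4% and 14.9% of all genes were (limma). With PCT 1 was higher and 2 lower, where 10.1% and 8.79% of all genes were. With NPCT than PCT, 1 was higher and 9 lower, where 15.6% and 17.5% of all genes were. In 12 of them the NPCT libraries lay wholly below Control, where 20.3% of all genes did. Mapk9 (JNK2), a kinase that acts on family members, differed by -0.37 with NPCT (adjusted p = 0.0535, limma). Jun and Foxo3, transcription factors known to induce Bcl2l11, differed by 0.31 (adjusted p = 0.121) and -0.28 (adjusted p = 0.0739, limma) with PCT.

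Markers of other cells moved with the groups. Of the microglial markers, 4 were called lower with PCT than Control and 8 higher with NPCT than PCT, where 1.72% and 4.38% of all genes were. Of the astrocyte markers, 5 were called lower with PCT than Control, with sums of 2122 to 2193 FPKM against 2461 to 2640. Among them only Gfap had a higher mean with PCT than in Control, at 918.8 against 775.7 FPKM. Fibroblast markers summed to 62.0 to 78.0 FPKM with NPCT, 88.5 to 96.4 in Control and 90.9 to 110.0 with PCT, and oligodendrocyte markers to 517.5 to 552.5, 474.6 to 491.1 and 430.5 to 448.7 FPKM. Neuronal markers summed to 2417 to 2477 FPKM with NPCT, below Control (2499 to 2603), and 0 of 14 were called. The list was split, as Rbfox3, Tubb3, Syp, Nefm and Slc17a7 had higher means with NPCT than in Control and the others lower means. Proliferation markers (147.8 to 182.3 FPKM) overlapped between groups, endothelial markers summed to at most 4.35 FPKM, and red blood cell markers to at most 0.41 FPKM. Their part in the levels of the members was not tested.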

How the data were processed

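The 9 libraries were sequenced from poly-A RNA. Per the labels and methods, the authors aligned reads to Rnor_6.0 with HISAT2 2.0.5, counted them on genes with featureCounts 1.5.0-p3, tested them with DESeq2 1.20.0 and deposited 1 table of FPKM, unlogged; StringTie 1.3.3b and CASAVA also appear in the submitters' processing notes. FPKM multiplied by gene length gave whole fragments, within 0.01 of a fragment, for at least 99.98% of values per library, so depth was recovered. Libraries of a group were compared by chi-square over genes with at least 20 fragments in the pair. PCR copies are included, and intervals cover only the spread between libraries.

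As the values are FPKM, limma 3.58.1 in R 4.3.3 was used on log2(FPKM + 0.1), with a trended prior, 1 mean per group over all 9 libraries and Benjamini-Hochberg adjustment over the 15958 genes with a mean of at least 0.5 FPKM. Fold changes are on that log scale and understate changes of low genes. Calls needed a fold change above 1.5 with an adjusted p no higher than 0.05, as in the methods. An exact permutation test of 3 libraries against 3 cannot give a p below 0.1. The fit was tested on simulated data.

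The members and lists were chosen with earlier results of these data known. Named were all members, called genes of the 5 pathway lists, or otherwise the 2 genes of each list with the smallest p against Control, and the 5 genes most like Bax. Some listed genes are counted but not reported here by name. Alternatives were another pseudocount (1 or 0.01), a filter at 1 FPKM or none, median-ratio scaling, quantile normalization, only the 2 groups compared, a replicate block, removal of the length trend, limma-voom on recovered fragments, and each library left out. The ratio of Bax had been planned with Mcl1 in the anti-apoptotic sum. As that symbol was not found, the main sum leaves it out. A sum with the Mcl-1 locus was added after seeing the data.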

Additional observations from a re-analysis of the deposited data

How the results depend on the processing

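Low genes such as Bcl2 and Bmf rest on few fragments. Bax was above Control in all settings, by 0.74 to 0.85 on the log2 scale with NPCT and 0.65 to 0.69 with PCT, and by 0.75 to 0.92 and 0.52 to 0.76 with a library left out. Median-ratio scaling changed nothing, as its factor was the same in all libraries. Replicate numbers did not pair the libraries (correlations of same-numbered libraries -0.0725 to 0.0344), and the replicate block gave 319 genes called with NPCT. The cause of the shifts below was not tested.

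For NPCT against Control, 35 genes were called in the main analysis, 208 at a mean FPKM of at least 1, 9 without a filter, 189 with quantile normalization, 579 with only the 2 groups, 55 with the length trend removed, 354 with limma-voom and 0 to 562 with a library left out. Among the members with a test, 0 were called in any contrast under any alternative. For PCT against Control, 368 genes were called, and 172 to 398 with a library left out. Between NPCT and PCT, 919 genes were called, 454 with only the 2 groups and 525 to 1623 with a library left out, the highest without PCT replicate 3.

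Of 75 log2 differences followed under 19 alternatives, 9 turned sign at least once. Bid went to -0.00020 (pseudocount of 1) and -0.034 (quantile normalization) for PCT against Control and 0.0039 (quantile normalization) for NPCT against PCT. With a library left out Bid ranged from -0.12 to 0.052, -0.10 to 0.070 and -0.085 to 0.035 in the 3 contrasts (NPCT and PCT against Control, NPCT against PCT). Also with a library left out, Bcl2l2 ranged from -0.080 to 0.22 (PCT against Control), Bcl2 from -0.13 to 0.14 and Bcl2l1 from -0.041 to 0.20 (NPCT against PCT). Phlda3 went to -0.0075 with the length trend removed and ranged from -0.073 to 0.19 with a library left out (NPCT against PCT). For NPCT against Control, Aen went to -0.0053 with quantile normalization and -0.011 with the length trend removed, with a range of -0.058 to 0.091, and Cycs to -0.045 and -0.10, with a range of -0.029 to 0.044. The ratio of Bax to the anti-apoptotic sum, 1.49-fold higher with NPCT and 1.42-fold with PCT than in Control, ranged from 1.43 to 1.56 and 1.35 to 1.48 with a library left out. With the Mcl-1 locus added to the sum, the ratio was 1.66-fold with NPCT and 1.45-fold with PCT. That sum is nearer to the planned one, but the locus was added after seeing the data.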
